A study of Mus musculus with 11 samples.

Results

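The liver turns cholesterol into bile acids, and 10 genes that carry out or control this conversion were followed in whole liver of mice: Cyp7a1, Cyp7b1, Cyp8b1, Cyp27a1, Slc27a5, Baat, Nr1h4, Nr0b2, Fgfr4 and Klb. They were taken by symbol from a table of read counts for 55414 genes. All 10 were found there, and all 10 were among the 17038 genes that passed the filter on low counts. RNA had been sequenced from 11 livers of male Clec4f-DTR mice. The WDA-DT livers (n = 4, below DT livers) came from mice fed western diet with alcohol and given serial injections of DT. The WDA-Saline livers (n = 4, below saline livers) came from mice on the same diet with serial injections of saline. The chow livers (n = 3) came from mice on chow, for which the labels name no injections. Mice were 8 weeks old when the diets began and ate them for 16 weeks. All groups carried Clec4f-DTR, in which the receptor for diphtheria toxin is tied to Clec4f, a gene of Kupffer cells (the resident macrophages of the liver). No group given toxin without the receptor, and none given toxin on chow, was analysed here, so the DT and saline livers compare toxin injections with saline injections on one diet, and the DT and chow livers differ in diet and toxin together.

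As background, hepatocytes make bile acids by a classic route that starts with the cholesterol 7-alpha-hydroxylase CYP7A1 and an alternative route that starts with the sterol 27-hydroxylase CYP27A1 and continues with CYP7B1. CYP8B1 adds the hydroxyl group that marks cholic acid, and SLC27A5 and BAAT join finished bile acids to taurine. Bile acids bind the nuclear receptor FXR, encoded by Nr1h4, which induces the corepressor SHP, encoded by Nr0b2. SHP lowers transcription of Cyp7a1 and Cyp8b1. FXR in the gut also releases the hormone FGF15, which acts on hepatocytes through the receptor FGFR4 and its coreceptor beta-klotho, encoded by Klb, and lowers Cyp7a1.

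Cyp8b1 is a target of this repression and Nr0b2 encodes the repressor, and both genes are described in the literature as responding to the nuclear receptor LRH-1 (Nr5a2). Their upstream sequences are shown for that reason, each as the 250 bases before the gene start in RefSeq on GRCm38.p6, written 5′ to 3′ on the gene's strand. The Cyp8b1 window is chr9:121916306-121916555 on the minus strand and the Nr0b2 window is chr4:133553126-133553375 on the plus strand. Capitals mark matches to CAAGGNCA, a site bound by LRH-1, or to CAAAGTCCA, a sequence bound by HNF4A.
Cyp8b1: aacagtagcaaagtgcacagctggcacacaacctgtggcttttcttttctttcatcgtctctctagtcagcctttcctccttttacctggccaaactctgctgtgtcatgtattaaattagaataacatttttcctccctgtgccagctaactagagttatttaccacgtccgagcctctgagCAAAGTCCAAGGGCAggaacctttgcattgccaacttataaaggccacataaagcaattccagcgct
Nr0b2: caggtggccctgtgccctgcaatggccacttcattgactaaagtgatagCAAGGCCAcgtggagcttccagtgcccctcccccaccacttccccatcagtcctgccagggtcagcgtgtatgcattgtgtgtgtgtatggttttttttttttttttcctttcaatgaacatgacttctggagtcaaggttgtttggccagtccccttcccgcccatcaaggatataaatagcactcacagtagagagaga
In Cyp8b1 the HNF4A match CAAAGTCCA lay 67 to 59 bases before the start and the LRH-1 match CAAGGGCA lay 60 to 53 bases before it, so the 2 matches overlapped by 2 bases. In Nr0b2 the LRH-1 match CAAGGCCA lay 201 to 194 bases before the start. Searched on both strands, CAAGGNCA occurred in 5.53% and CAAAGTCCA in 0.384% of 32851 windows of the same length. The inverted repeat of the FXR element, a textbook sequence of 2 hexamers facing each other, occurred as an exact match in 0.0244% of them and in none of the 6 members with a RefSeq window (Cyp8b1, Cyp27a1, Nr0b2, Nr1h4, Fgfr4 and Klb). The motifs were chosen after the sequences were seen, so these shares do not measure how unusual the matches are. Such matches describe letters, not binding.

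Across the series, libraries held 43995217 to 58089531 counts. Values below are CPM (counts scaled to a common library size) after scaling by trimmed mean of M-values (TMM), and each member's lowest value lay far above the detection floor, since 3 counts equal 0.0398 to 0.0773 CPM. Calls are from edgeR's quasi-likelihood test with Benjamini-Hochberg adjustment over all 17038 genes, at an adjusted p below 0.05. Clec4f averaged 9.48 ± 3.98 CPM in DT livers, 45.9 ± 2.55 CPM in saline livers and 45.0 ± 6.94 CPM in chow livers (SD, n = 4, 4 and 3). Hepatocyte transcripts were abundant everywhere, with 10 hepatocyte markers summing to 76861 to 107138 CPM in DT livers, 91579 to 107507 CPM in saline livers and 112087 to 133050 CPM in chow livers. DT liver 2 stood apart from the other DT livers. Its Clec4f was still low, at 15.2 CPM against 43.1 to 49.1 CPM in saline livers. Kupffer cell markers summed to 389, 494, 363 and 382 CPM in DT livers 1 to 4. They summed to 595 to 739 CPM in saline livers and 516 to 716 CPM in chow livers. On the first principal component, which held 75.9% of the variance, DT livers 1, 3 and 4 lay at 62.5 to 71.8 and DT liver 2 at -14.2, beside the other groups at -34.6 to -10.3. The 10 cholangiocyte markers summed to 399, 49.4, 259 and 450 CPM in DT livers 1 to 4, against 37.3 to 63.7 CPM in saline livers and 37.3 to 58.3 CPM in chow livers. Fibroblast markers summed to 665, 249, 643 and 767 CPM in DT livers 1 to 4, against 152 to 305 CPM in saline livers and 113 to 150 CPM in chow livers. In DT livers against saline livers, 10 of 10 cholangiocyte, 8 of 10 fibroblast and 2 of 10 other immune cell markers rose and 7 of 10 Kupffer cell markers fell. Over all genes tested, 14.3% were called higher and 7.62% lower, so the immune cell count lay near the share of all genes. With limma-voom, 4 cholangiocyte, 8 fibroblast and 1 immune cell markers rose and 7 Kupffer cell markers fell. Of the 10 hepatocyte markers edgeR called 0 in that comparison (1 was higher at an unadjusted p below 0.05, and DESeq2 called 0). In DT livers against chow livers 5 of 10 fell, where 8.16% of all genes tested were called lower. The part of these lists in the results below was not tested. In whole liver, fewer hepatocytes and less RNA per hepatocyte cannot be told apart.

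In DT livers compared with saline livers, 4 of the 10 genes were called: the alternative pathway hydroxylase Cyp7b1, the FXR gene Nr1h4 and the bile acid ligase Slc27a5 fell, and the FGF15 receptor gene Fgfr4 rose. Over all genes tested, 21.9% were called in this comparison, 7.62% as lower and 14.3% as higher. The median log2 fold change of the 10 genes was -0.60, beside 0.02 for all genes tested. Fgfr4 was the one member whose DT and saline livers did not overlap, a separation seen in 19.3% of all genes. Without DT liver 2 the same test called 7 members: Cyp7b1, Nr1h4, Slc27a5, Baat, Cyp27a1 and Klb as lower and Fgfr4 as higher.

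In saline livers compared with chow livers, Cyp27a1 was the single member called, and it was lower. The share of all genes called was 5.58%, with 2.45% higher and 3.13% lower. For 6 members (Cyp7b1, Cyp8b1, Cyp27a1, Fgfr4, Baat and Slc27a5), every saline liver lay below every chow liver. Of all genes, 30.4% had groups that did not overlap, a share that counts saline livers above and saline livers below together. In DT livers compared with chow livers, 6 members fell (Cyp7b1, Cyp8b1, Cyp27a1, Nr1h4, Baat and Slc27a5), where 23.0% of all genes were called, 14.8% as higher and 8.16% as lower. For 7 members DT and chow livers did not overlap, as for 29.2% of all genes. The median log2 fold change was -0.30 for saline over chow and -0.83 for DT over chow, beside 0.00 and -0.02 for all genes tested. The 3 comparisons share livers in pairs, so their values are given side by side and are not independent of each other.

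**Figure D1:**
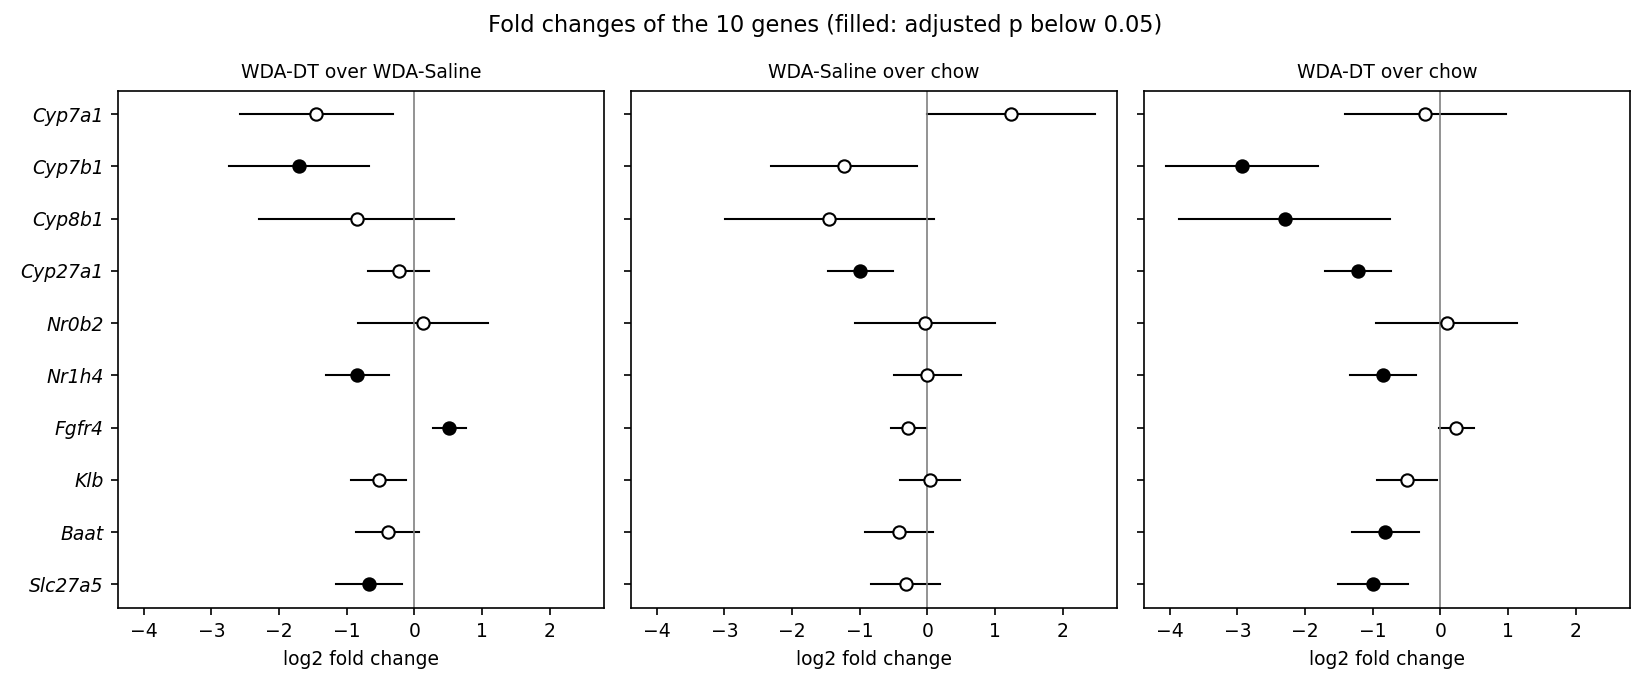
Log2 fold change (x axis) of the 10 genes (y axis) in the comparisons of DT with saline livers, saline with chow livers and DT with chow livers. Points are estimates, bars are 95% confidence intervals, and filled points passed an adjusted p of 0.05; 4, 1 and 6 points are filled, and Fgfr4 in DT over saline is the only filled point above 0.

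Cyp7a1, the rate-limiting enzyme of the classic route, was highest in 2 of the saline livers. It measured 36.0, 115, 88.6 and 65.3 CPM in DT livers 1 to 4, against 386, 91.5, 65.0 and 293 CPM in saline livers 1 to 4 and 72.9, 99.8 and 94.3 CPM in chow livers 1 to 3. Saline livers 1 and 4 lay above all other livers, and saline livers 2 and 3 lay within the range of the DT livers. The log2 fold change was -1.45 ± 0.52 (SE) for DT over saline, with an adjusted p of 0.0639 in edgeR. It was 1.23 (95% interval -0.01 to 2.47, adjusted p = 0.243) for saline over chow and -0.22 (-1.42 to 0.97, adjusted p = 0.797) for DT over chow, where scaling by total counts gave 0.21 (adjusted p = 0.784). The difference between DT and saline livers passed the threshold in DESeq2 (-1.44, adjusted p = 0.0156) and without saline liver 3 (-1.76, adjusted p = 0.0257). Over the other alternatives of processing it did not pass, with adjusted p up to 0.193.

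Cyp8b1, which steers synthesis toward cholic acid, lay below its chow level in all 8 livers on the diet with alcohol. It measured 120, 519, 173 and 84.5 CPM in DT livers 1 to 4, against 725, 207, 79.0 and 612 CPM in saline livers 1 to 4 and 1196, 978 and 1147 CPM in chow livers 1 to 3. Every DT liver and every saline liver lay below every chow liver, and DT and saline livers overlapped across most of their range. Cyp8b1 fell 4.94-fold in DT livers against chow livers (log2 -2.30 ± 0.72 SE, adjusted p = 0.0389). This call ended in edgeR without any one of chow livers 1 to 3 or of DT livers 1, 3 and 4, where the log2 fold change was -2.38 to -2.01 and the adjusted p was 0.0785 to 0.107, and without a filter on low counts (adjusted p = 0.135). Saline over chow gave -1.45 (95% interval -2.99 to 0.09, adjusted p = 0.27), and DT over saline gave -0.86 (-2.30 to 0.58, adjusted p = 0.367), and neither passed.

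Within the saline livers the 2 hydroxylases of the classic route followed one order. Liver 1 was highest, then 4, 2 and 3, for both Cyp7a1 and Cyp8b1, with 5.93-fold between the highest and lowest saline liver for Cyp7a1 and 9.19-fold for Cyp8b1. Among the DT livers both were highest in liver 2 and next in liver 3, and the orders of the last 2 differed. In the chow livers Cyp7a1 was highest in liver 2 and Cyp8b1 lowest there.

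The balance between these enzymes was read as the log2 ratio of Cyp8b1 over Cyp7a1 within each liver, which does not depend on how libraries are scaled. On the linear scale this ratio of CPM was 3.34, 4.49, 1.96 and 1.29 in DT livers 1 to 4, against 1.88, 2.26, 1.21 and 2.09 in saline livers 1 to 4 and 16.4, 9.80 and 12.2 in chow livers 1 to 3. All 8 livers on the diet with alcohol lay below all 3 chow livers. The log2 ratio averaged 1.31 ± 0.80 in DT livers, 0.86 ± 0.40 in saline livers and 3.64 ± 0.37 in chow livers (SD, n = 4, 4 and 3). Saline livers were 6.90-fold below chow livers and DT livers 5.04-fold below chow livers. For both, an exact two-sided permutation test gave p = 0.0286, the smallest that 3 against 4 livers allow, and p = 0.0572 after Benjamini-Hochberg adjustment over the 6 ratio tests made, so neither passed 0.05 after adjustment. DT and saline livers differed by 0.45 (exact permutation p = 0.371, adjusted 0.371), less than the spread between DT livers.

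Cyp7b1, the oxysterol hydroxylase of the alternative route, showed the largest fall of the 10 genes in DT livers against either group. It measured 14.4, 73.7, 33.1 and 16.3 CPM in DT livers 1 to 4, against 118, 71.4, 90.1 and 166 CPM in saline livers 1 to 4 and 319, 275 and 191 CPM in chow livers 1 to 3. The groups stepped down in the order chow, saline and DT, and a single pair of livers (DT liver 2 and saline liver 2) kept DT and saline livers from separating. Cyp7b1 fell 3.25-fold in DT livers against saline livers (log2 -1.70 ± 0.47 SE, adjusted p = 0.0266). It fell 7.62-fold in DT livers against chow livers (log2 -2.93 ± 0.51 SE, adjusted p = 0.00492). Saline over chow gave -1.23 (95% interval -2.31 to -0.15, adjusted p = 0.179), which did not pass. The call against chow held in all 22 alternatives of processing and omission. The call against saline ended without saline liver 1 or 4 or without DT liver 1, 3 or 4 (log2 -1.68 to -1.44, adjusted p 0.0576 to 0.0789), without a filter on low counts (adjusted p = 0.0919) and in a fit of DT and saline livers alone (-1.71, adjusted p = 0.0507).

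The ratio of Cyp7b1 over Cyp7a1 set the alternative route against the classic one. It was 0.400, 0.638, 0.374 and 0.250 in DT livers 1 to 4, against 0.306, 0.781, 1.39 and 0.567 in saline livers 1 to 4 and 4.37, 2.75 and 2.03 in chow livers 1 to 3. As with Cyp8b1, every liver on the diet with alcohol lay below every chow liver. DT livers were 7.37-fold below chow livers (exact permutation p = 0.0286, the smallest possible, adjusted 0.0572), and saline livers were 4.40-fold below chow livers (exact permutation p = 0.0571, adjusted 0.0856). DT livers and saline livers overlapped, with a log2 difference of -0.74 (exact permutation p = 0.229, adjusted 0.275).

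**Figure D2:**
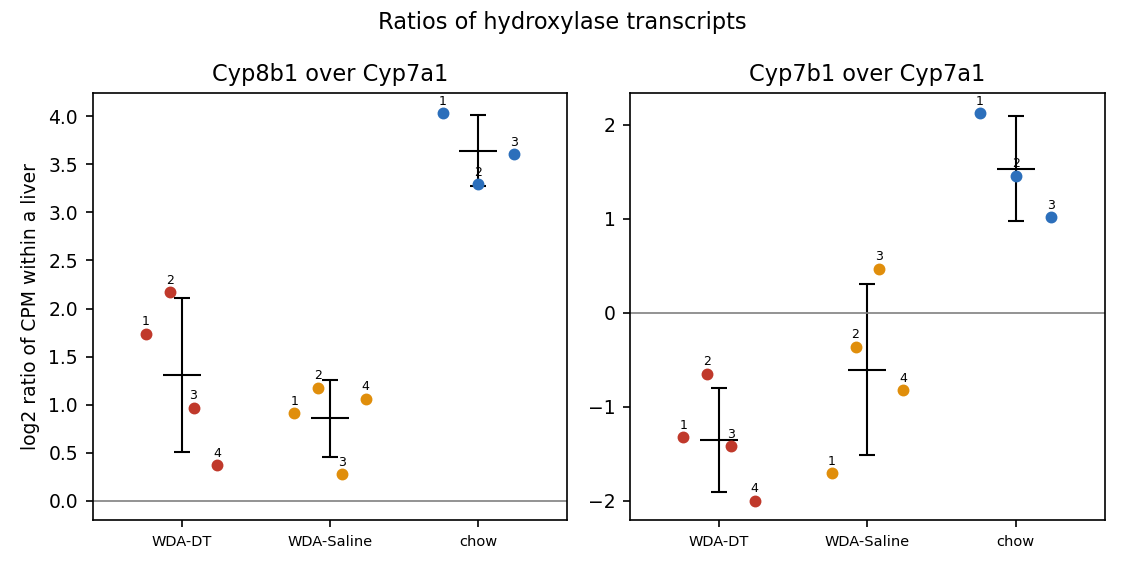
Log2 ratio (y axis) of Cyp8b1 over Cyp7a1 and of Cyp7b1 over Cyp7a1 in each liver of the DT, saline and chow groups (x axis), with group means and SD. Mean log2 ratios of Cyp8b1 over Cyp7a1 were 1.31, 0.86 and 3.64 in DT, saline and chow livers, and all chow livers lie above all others in both panels.

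Cyp7a1 and its regulators also follow the daily clock, and the hour at which livers were taken is not stated in the labels. Clock genes were looked at after the values of the members were seen. Dbp, a clock output gene, measured 28.2, 54.6, 43.9 and 3.74 CPM in DT livers 1 to 4, against 132, 146, 139 and 167 CPM in saline livers 1 to 4 and 9.37, 7.76 and 36.5 CPM in chow livers 1 to 3. Arntl, which encodes the clock activator BMAL1 and peaks at another time of day, measured 21.8, 7.74, 11.2 and 28.3 CPM in DT livers, against 6.66, 3.21, 2.43 and 1.98 CPM in saline livers and 24.4, 21.4 and 8.05 CPM in chow livers. Saline livers lay above all others for Dbp and below all others for Arntl. Per3 also separated, at 2.96 to 10.7 CPM in DT livers, 15.2 to 24.4 CPM in saline livers and 5.46 to 10.4 CPM in chow livers. Per2 overlapped, at 12.97 to 38.56 CPM in DT livers, 24.1 to 40.3 CPM in saline livers and 6.62 to 17.1 CPM in chow livers. Nr1d1 overlapped as well, at 34.4 to 119 CPM in DT livers, 112 to 170 CPM in saline livers and 68.5 to 117 CPM in chow livers. Every comparison that uses saline livers thus also compares livers that differed in Dbp, Arntl and Per3. The part of these values in the levels, ratios and calls of any gene reported here was not tested.

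Cyp27a1, the mitochondrial sterol hydroxylase that opens the alternative route, was lower on the diet with alcohol whether or not toxin was given. It measured 258, 406, 190 and 218 CPM in DT livers 1 to 4, against 353, 287, 313 and 304 CPM in saline livers 1 to 4 and 641, 578 and 654 CPM in chow livers 1 to 3. No liver on the diet with alcohol reached the lowest chow liver. Cyp27a1 fell 1.99-fold in saline livers against chow livers (log2 -0.99 ± 0.22 SE, adjusted p = 0.0248) and 2.33-fold in DT livers against chow livers (log2 -1.22 ± 0.22 SE, adjusted p = 0.00537). The second call held in all 22 alternatives. The first ended without any one of chow livers 1 to 3 or of saline livers 2 to 4 (log2 -1.04 to -0.95, adjusted p 0.0638 to 0.0999). DT over saline gave -0.23 (95% interval -0.68 to 0.22, adjusted p = 0.437). Without DT liver 2 this difference was -0.50 and passed (adjusted p = 0.00818), and with scaling by total counts it was 0.06, of the opposite sign (adjusted p = 0.774).

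**Figure D3:**
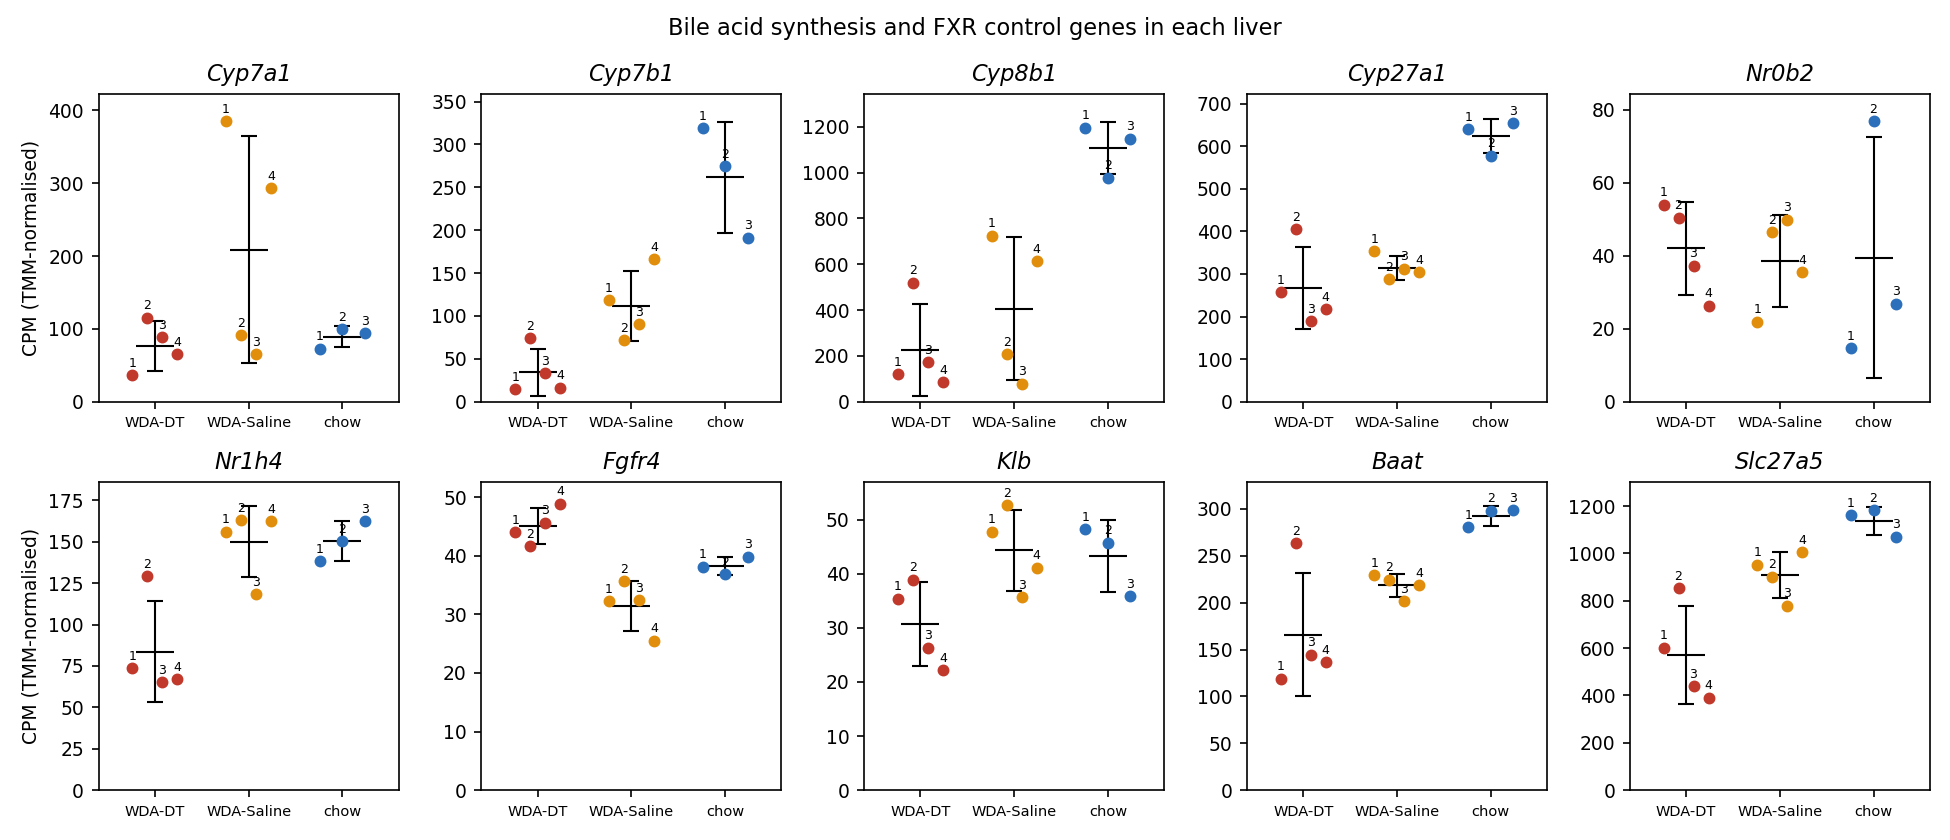
TMM-scaled CPM (y axis, linear scale) of the 10 genes in each of the 4 DT, 4 saline and 3 chow livers (x axis), with group means and SD. Cyp27a1 and Cyp8b1 lie below the chow livers in both groups on the diet with alcohol, and the highest DT point in 8 of the 10 panels is DT liver 2.

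Slc27a5, the bile acid CoA ligase that prepares bile acids for conjugation, was lowest in 3 of the DT livers. It measured 601, 852, 438 and 391 CPM in DT livers 1 to 4, against 953, 902, 779 and 1004 CPM in saline livers 1 to 4 and 1163, 1182 and 1071 CPM in chow livers 1 to 3. DT liver 2 lay inside the saline range and the other 3 DT livers below it. Slc27a5 fell 1.59-fold in DT livers against saline livers (log2 -0.67 ± 0.22 SE, adjusted p = 0.0486) and 2.00-fold against chow livers (log2 -0.997 ± 0.24 SE, adjusted p = 0.0132). The call against saline livers was close to the threshold: it ended without any one library other than DT liver 2 (log2 -0.75 to -0.52, adjusted p 0.0585 to 0.135), and without DT liver 2 it held (log2 -0.93, adjusted p = 0.000886). It also ended with upper quartile factors (-0.59, adjusted p = 0.0679) and with scaling by total counts (-0.38, adjusted p = 0.0755). The call against chow livers held without any one library. Saline over chow gave -0.32 (95% interval -0.84 to 0.19, adjusted p = 0.482).

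Baat, which joins bile acid CoA to taurine, measured 119, 263, 144 and 137 CPM in DT livers 1 to 4. It measured 229, 224, 202 and 219 CPM in saline livers 1 to 4. In chow livers 1 to 3 it measured 280, 298 and 299 CPM. Its group means stood in the same order as those of Slc27a5, and DT liver 2 was again the exception, above every saline liver. Baat fell 1.76-fold in DT livers against chow livers (log2 -0.82 ± 0.23 SE, adjusted p = 0.0249). That call ended without any one chow liver or without DT liver 3 or 4 (log2 -0.85 to -0.71, adjusted p 0.0663 to 0.0744), and with scaling by total counts (-0.40, adjusted p = 0.0586). DT over saline gave -0.40 (95% interval -0.86 to 0.06, adjusted p = 0.191) and passed without DT liver 2 (-0.71, adjusted p = 0.000291). Saline over chow gave -0.42 (-0.92 to 0.08, adjusted p = 0.324) and also passed when DT liver 2 was left out of the shared fit (-0.42, adjusted p = 0.0195).

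Nr1h4, which encodes the bile acid receptor FXR, was lower in DT livers, while saline and chow livers overlapped. It measured 73.8, 129, 65.1 and 66.9 CPM in DT livers 1 to 4, against 156, 163, 118 and 163 CPM in saline livers 1 to 4 and 138, 150 and 163 CPM in chow livers 1 to 3. DT livers 1, 3 and 4 lay below every liver of the other groups, and DT liver 2 lay above saline liver 3 and below every chow liver. Nr1h4 fell 1.79-fold in DT livers against saline livers (log2 -0.84 ± 0.21 SE, adjusted p = 0.018) and 1.80-fold against chow livers (log2 -0.84 ± 0.22 SE, adjusted p = 0.0209). Saline over chow gave -0.00 (95% interval -0.50 to 0.49, adjusted p = 0.997). The call against saline livers ended without saline liver 2 or 4 or DT liver 3 or 4 (log2 -0.80 to -0.73, adjusted p 0.0522 to 0.0549). The call against chow livers ended without any one chow liver or DT liver 3 or 4 (log2 -0.90 to -0.72, adjusted p 0.0524 to 0.0745).

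Nr0b2, which encodes the corepressor SHP and is a direct FXR target, did not separate the groups. It measured 54.0, 50.4, 37.3 and 26.3 CPM in DT livers 1 to 4, against 21.9, 46.4, 49.9 and 35.5 CPM in saline livers 1 to 4 and 14.6, 76.9 and 26.8 CPM in chow livers 1 to 3. The lowest and the highest of the 11 values were both chow livers, 5.28-fold apart. The log2 fold change was 0.13 for DT over saline (95% interval -0.83 to 1.09, adjusted p = 0.853), -0.04 for saline over chow (-1.08 to 1.00, adjusted p = 0.976) and 0.09 for DT over chow (-0.95 to 1.13, adjusted p = 0.909). These intervals leave room for changes of about 1 log2 unit in either direction.

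Set against its target genes, Nr0b2 ran in the reverse order of Cyp7a1 and Cyp8b1 within the saline livers. Saline liver 3 had the highest Nr0b2 (49.9 CPM) with the lowest Cyp7a1 (65.0 CPM) and Cyp8b1 (79.0 CPM). Saline liver 1 had the lowest Nr0b2 (21.9 CPM) with the highest Cyp7a1 (386 CPM) and Cyp8b1 (725 CPM). Livers 2 and 4 lay between, in matching reverse order. The chow livers showed the reverse order for Cyp8b1, at 1196, 1147 and 978 CPM where Nr0b2 was 14.6, 26.8 and 76.9 CPM, a 1.22-fold range of Cyp8b1. For Cyp7a1 they showed the same order as Nr0b2, with both highest in liver 2 and both lowest in liver 1. Among DT livers Nr0b2 was highest in liver 1, where Cyp7a1 was lowest, but liver 2 had nearly as much Nr0b2 (50.4 CPM) with the highest Cyp7a1 (115 CPM) and Cyp8b1 (519 CPM). With 3 or 4 livers in a group these orders are descriptions and carry no test.

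**Figure D4:**
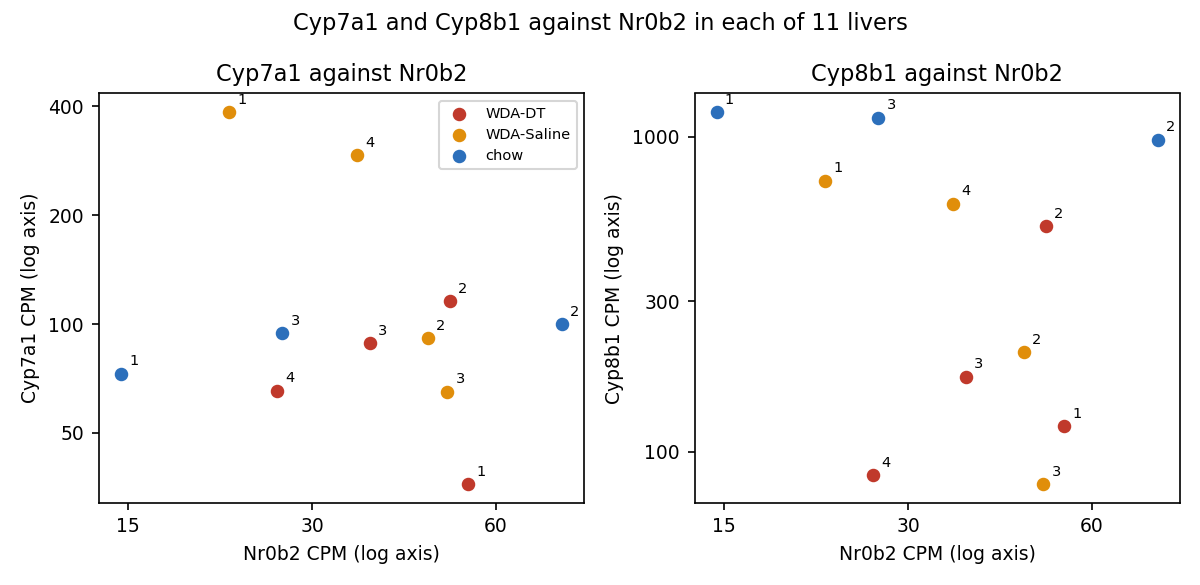
CPM of Cyp7a1 and of Cyp8b1 (y axes, log scale) against CPM of Nr0b2 (x axis, log scale) in the 11 livers, marked by DT, saline and chow group. In the 4 saline livers Cyp7a1 runs between 386 CPM at 21.9 CPM of Nr0b2 and 65.0 CPM at 49.9 CPM of Nr0b2. The chow livers run the same way for Cyp8b1 and the opposite way for Cyp7a1, and the DT livers follow neither order.

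Fgfr4, the hepatocyte receptor for FGF15, was the member that rose. It measured 44.0, 41.6, 45.6 and 48.9 CPM in DT livers 1 to 4, against 32.3, 35.7, 32.5 and 25.5 CPM in saline livers 1 to 4 and 38.1, 36.8 and 39.8 CPM in chow livers 1 to 3. Every DT liver lay above every chow liver, and every chow liver above every saline liver. Fgfr4 was 1.43-fold higher in DT livers than in saline livers (log2 0.52 ± 0.11 SE, adjusted p = 0.0103), and this call held in all 22 alternatives, with log2 values of 0.43 to 0.86. DT livers averaged 45.0 ± 3.05 CPM, saline livers 31.5 ± 4.29 CPM and chow livers 38.3 ± 1.50 CPM (SD, n = 4, 4 and 3). Saline over chow gave -0.28 (95% interval -0.54 to -0.03, adjusted p = 0.194) and DT over chow gave 0.24 (-0.02 to 0.49, adjusted p = 0.167), and neither passed. With scaling by total counts, Fgfr4 was called higher in DT livers against chow livers (0.71, adjusted p = 0.00787), where that scaling moved the median of all genes to 0.44.

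Klb, whose product beta-klotho pairs with FGFR4 to bind FGF15, did not move with Fgfr4. It measured 35.4, 38.9, 26.3 and 22.2 CPM in DT livers 1 to 4, against 47.8, 52.7, 35.6 and 41.1 CPM in saline livers 1 to 4 and 48.2, 45.8 and 35.8 CPM in chow livers 1 to 3. DT livers lay in the lower part of the range and overlapped both other groups. The log2 fold change was -0.53 for DT over saline (95% interval -0.94 to -0.12, adjusted p = 0.0619), 0.03 for saline over chow (-0.41 to 0.48, adjusted p = 0.951) and -0.50 for DT over chow (-0.93 to -0.06, adjusted p = 0.0941). Without DT liver 2 it was called lower against saline livers (-0.66, adjusted p = 0.0134) and against chow livers (-0.63, adjusted p = 0.0226).

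Per kilobase of exon (GENCODE vM21), which allows levels to be compared between genes, Cyp8b1 was the most abundant member in chow livers at 568 ± 58.5 CPM per kb, ahead of Slc27a5 at 467 ± 24.3 CPM per kb. In the groups on the diet with alcohol Slc27a5 led, at 234 ± 85.4 CPM per kb in DT livers and 373 ± 39.5 CPM per kb in saline livers. Cyp8b1 stood behind Slc27a5 and Cyp27a1 in DT livers at 115 ± 102 CPM per kb, within the spread of Cyp27a1 at 123 ± 44.2 CPM per kb and of Baat at 85.4 ± 33.9 CPM per kb, and next to Slc27a5 in saline livers at 208 ± 160 CPM per kb, ahead of Cyp27a1 at 145 ± 12.9 CPM per kb by less than its own SD. Fgfr4 and Klb were the least abundant members in every group. Fgfr4 averaged 12.7 ± 0.86, 8.89 ± 1.21 and 10.8 ± 0.42 CPM per kb in DT, saline and chow livers, and Klb averaged 6.75 ± 1.71, 9.74 ± 1.64 and 9.51 ± 1.44 CPM per kb in the same livers. Their order differed in DT livers beyond these SDs and lay within them in saline and chow livers.

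Of 15 further enzymes of bile acid synthesis, 5 were called lower in DT livers than in saline livers and 10 passed in neither direction. Over all genes tested, 7.62% were called lower in this comparison and 14.3% higher. The median log2 fold change of the enzymes was -0.48, beside 0.02 for all genes tested. The 4 with the smallest p were Abcd3, a peroxisomal importer of bile acid precursors (-0.93, adjusted p = 0.00945), Scp2, a thiolase (-0.86, adjusted p = 0.0157), Hsd17b4, the D-bifunctional protein (-0.62, adjusted p = 0.0157), and Slc27a2, a very long chain acyl-CoA synthetase (-0.97, adjusted p = 0.0256). The first 3 calls held in all 11 refits without 1 library, and that of Slc27a2 held in 6 of them. The fifth, named after its values were seen, was Akr1c6, a hydroxysteroid dehydrogenase (-1.20, adjusted p = 0.0497). Of other side chain enzymes in the list, Amacr (-0.48, adjusted p = 0.089), Acot8 (-0.43, adjusted p = 0.102) and Acox2 (0.09, adjusted p = 0.705) were not called. In saline livers against chow livers Hsd3b7, the sterol dehydrogenase that acts after CYP7A1 and CYP7B1 (-0.97, adjusted p = 0.031), and the peroxisomal thioesterase gene Acot8 (-0.72, adjusted p = 0.0492) fell, and 13 of 15 passed in neither direction. These calls held in 5 and 2 of 11 refits without 1 library. In DT livers against chow livers 4 of the 15 fell, namely Acot8 (-1.15, adjusted p = 0.00411), Hsd17b4 (-0.86, adjusted p = 0.00547), Abcd3 (-1.07, adjusted p = 0.00613) and Slc27a2 (-1.31, adjusted p = 0.00968), and 1 rose. All of these 4 held in every refit without 1 library. The gene that rose, named after its values were seen, was Ch25h, cholesterol 25-hydroxylase (adjusted p = 0.0216), which averaged 0.315 ± 0.07 CPM in DT livers and lay at or below 0.0461 CPM, under the floor, in chow livers.

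Of 12 listed FXR targets other than Nr0b2, 11 were tested, and in DT livers against saline livers 2 rose and 1 fell, close to what the shares of 14.3% higher and 7.62% lower over all genes give for a list of that size. Slc51b, a subunit of the basolateral bile acid exporter, averaged 1.86 ± 0.70 CPM in DT livers and 0.490 ± 0.18 CPM in saline livers (SD, n = 4 each; log2 1.92, adjusted p = 0.0356). Apoc2, an activator of lipoprotein lipase, was also higher (1.60, adjusted p = 0.0317). Its counts were low, at 2.66 ± 1.06 CPM in DT livers and 0.879 ± 0.42 CPM in saline livers (SD, n = 4 each). In chow livers it averaged 4.01 ± 2.19 CPM (SD, n = 3). Exon overlap with other genes is given for the 10 genes only. Abcc2, the canalicular organic anion pump MRP2, was lower (-0.72, adjusted p = 0.00727). The Abcc2 call held in all 11 refits without 1 library, that of Apoc2 in 6 and that of Slc51b in 3. In saline livers against chow livers Apoc2 fell (-2.19, adjusted p = 0.0258, held in 7 of 11 refits). In DT livers against chow livers the phospholipid transfer protein gene Pltp rose (0.70, adjusted p = 0.00863), and Abcb4, the canalicular phospholipid floppase (-0.85, adjusted p = 0.0049), Abcc2 (-0.79, adjusted p = 0.00523) and Fetub (-1.08, adjusted p = 0.00573) fell, each in all 11 refits. The medians over the tested targets were 0.37, -0.46 and -0.15 for DT over saline, saline over chow and DT over chow.

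Among 9 tested bile acid transporters, 2 rose and 3 fell in DT livers against saline livers. The shares over all genes tested were 14.3% higher and 7.62% lower. The median log2 fold change of the transporters was -0.66, beside 0.02 for all genes tested. Abcc4, the basolateral exporter MRP4, averaged 29.3 ± 20.5 CPM in DT livers and 6.09 ± 2.52 CPM in saline livers (SD, n = 4 each; log2 2.27, adjusted p = 0.0159, held in 10 of 11 refits), and Slc51b rose as given above. Abcc2 fell, and so did the basolateral Abcc3 (-0.73, adjusted p = 0.0171, held in 9 of 11 refits). The summed CPM of the transporters was 1846, 3553, 1704 and 1764 in DT livers 1 to 4, against 4024 to 4457 in saline livers and 3445 to 3937 in chow livers. In saline livers against chow livers edgeR called 0 of the 9, with 1 of them lower at an unadjusted p below 0.05 and 1 called lower by DESeq2. In DT livers against chow livers Abcc2 and Abcc3 (-0.91, adjusted p = 0.00865) fell and Abcc4 (2.66, adjusted p = 0.0128) rose.

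Of 15 tested regulators of Cyp7a1 and Cyp8b1, 4 fell and 1 rose in DT livers against saline livers. Of all genes tested, 7.62% were called lower and 14.3% higher in this comparison. The median log2 fold change of the regulators was -0.10, beside 0.02 for all genes tested. Nr5a2, which encodes LRH-1, averaged 45.5 ± 5.73 CPM in DT livers and 74.1 ± 5.35 CPM in saline livers (SD, n = 4 each; log2 -0.70, adjusted p = 0.00433), and this call held in all 22 alternatives. The glucocorticoid receptor gene Nr3c1 (-0.90, adjusted p = 0.00981), also held in all 22, and Rxra, the partner of FXR (-0.58, adjusted p = 0.0218), were lower, and the xenobiotic receptor gene Nr1i2 was higher (0.43, adjusted p = 0.0225). The calls of Rxra and Nr1i2 held in 9 and 7 of 11 refits without 1 library. In saline livers against chow livers Nr1i2 was the single regulator called (-0.63, adjusted p = 0.0138, held in 9 of 11 refits). Against chow livers, 8.16% of all genes tested were called lower in DT livers and 14.8% higher. Among the regulators Nr5a2 (-0.45, adjusted p = 0.016), Hnf4a (-0.62, adjusted p = 0.036) and Nr1i3, which encodes CAR (-1.40, adjusted p = 0.0435), were lower there. Those 3 calls held in 8, 3 and 1 of 11 refits, and with scaling by total counts the Nr5a2 difference from chow livers was -0.00 (adjusted p = 0.999).

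**Figure D5:**
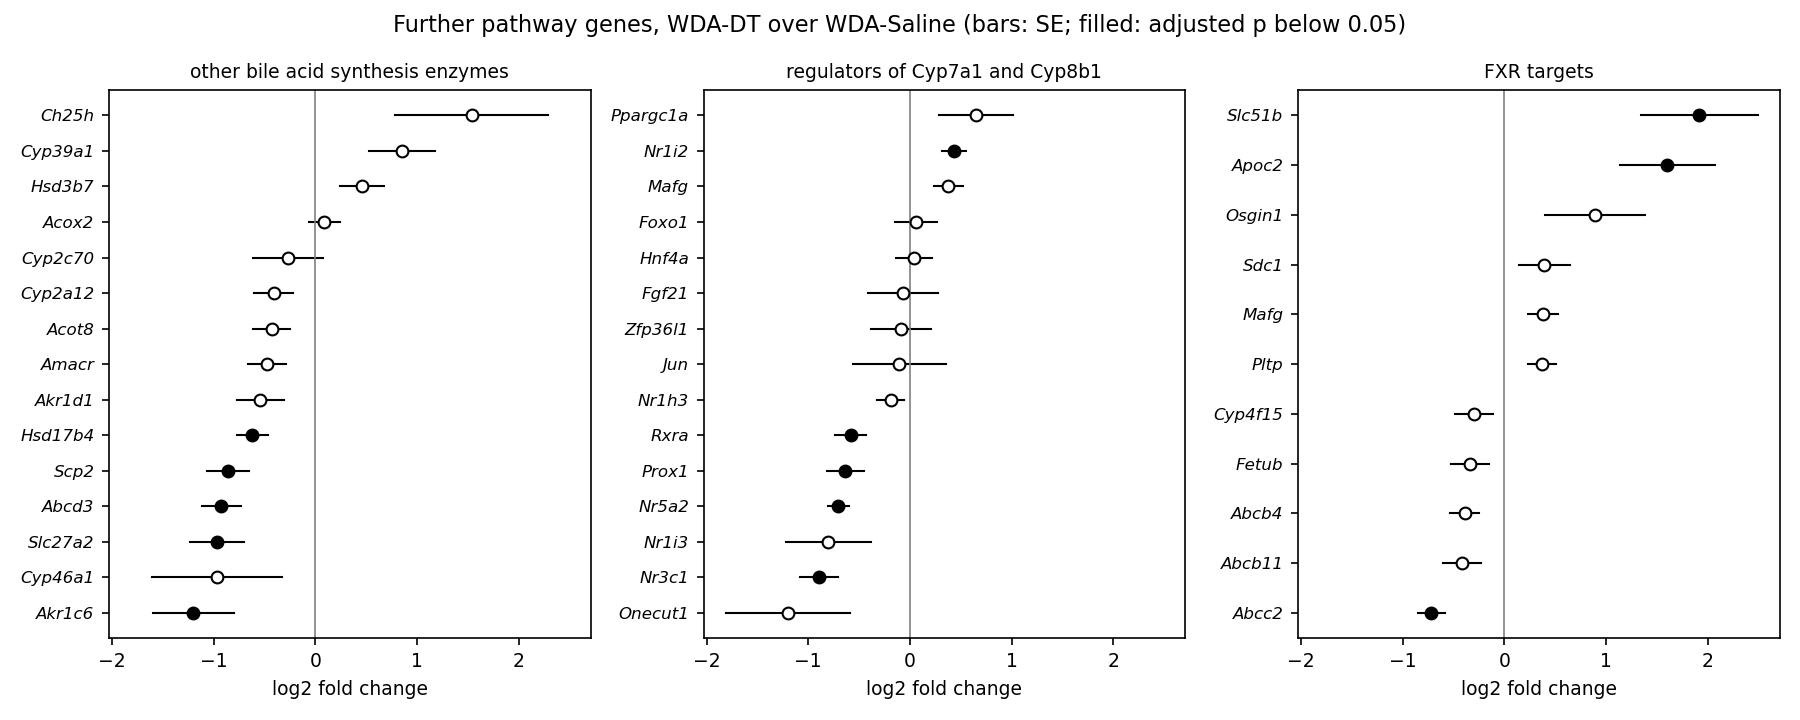
Log2 fold change in DT over saline livers (x axis) of single genes of the further enzymes, regulators and FXR targets (y axis). Bars are SE, and filled points passed an adjusted p of 0.05. The filled points number 5 of 15 enzymes, 3 of 11 FXR targets and 5 of 15 regulators.

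For the 3 members with the largest called change between DT and saline livers, the most alike genes were found by the root mean square difference of centred log2 CPM over the 11 livers, among 9758 genes. Nearest to Cyp7b1 were Cadm4 (0.467), Csrp3 (0.484) and Cyp2d9 (0.502), where the log2 CPM of Cyp7b1 itself had an SD of 1.45. Nr1h4 was closest to Mettl26 (0.112), Tnfaip8l1 (0.113) and Rdh7 (0.123), beside its own SD of 0.51. Slc27a5 was closest to 1300017J02Rik (0.0769), the mitochondrial dienoyl-CoA reductase gene Decr1 (0.0909) and Grhpr (0.0981), beside its own SD of 0.52.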

How the data were processed

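Poly(A) RNA of whole liver was sequenced. The labels' extraction text describes CD45-positive cells for single-cell work, and hepatocyte transcripts were abundant in these libraries. The tools named in the submitters' processing notes are FastQC, STAR and featureCounts, with GRCm39 as genome build. Versions, annotation, strand setting and treatment of mates are not given in the sources used here. The deposited values are raw counts per gene by the authors. Counts of 1 to 20 were even in 76.6% to 81.5% of cases, so both mates may have been counted, and halved counts were tried. No other annotated gene overlaps exons of the 10 genes in GENCODE vM21.

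Genes were kept with filterByExpr, which left 17038 of 28842 with any count, scaled by TMM, and fitted with edgeR's robust quasi-likelihood model (edgeR 4.0.16, R 4.3.3) over the 3 groups together, leaving 8 residual degrees of freedom (common BCV, the spread between replicates, 30.1%). All tests were two-sided, using Benjamini-Hochberg adjustment at 0.05 per comparison. The p-values measure only the spread between these samples. Ratios used log2 CPM with a prior count of 2 and an exact permutation test over livers. Alternatives were other scalings, DESeq2 1.42.0, limma-voom (limma 3.58.1), other filters, the compared groups alone, a replicate block, halved counts and omission of each library. The fit was tested on simulated data. The floor covers counting error only.

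The 10 genes and all lists were chosen with earlier results of these data known. All 10 were named; of each list, up to 4 genes with the smallest p were named per comparison, and for 3 members the 3 closest profiles among genes whose log2 CPM averaged 2 or more. Promoter motifs were chosen after the sequences were seen. Sequences came from RefSeq (GRCm38.p6), where 6 of the 10 genes matched.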

Additional observations from a re-analysis of the deposited data

Results flagged for a closer look

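Among 42 groups of 4 livers tested for a sample far from the others by Dixon's criterion, 4 were marked, where chance marks about 1 in 20. For Nr1h4, DT liver 2 had 129 CPM, while the other DT livers had 65.1 to 73.8 CPM. Also for Nr1h4, saline liver 3 had 118 CPM, while the other saline livers had 156 to 163 CPM. The summed CPM of the bile acid transporters was 3553 in DT liver 2, against 1704 to 1846 in the other DT livers. The summed CPM of the cholangiocyte markers was 63.7 in saline liver 3, against 37.3 to 41.6 in the other saline livers. Saline liver 3 was also the lowest saline liver for 6 of the 10 genes, and DT liver 2 the highest DT liver for 8 of the 10.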

How the results depend on the processing

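Of the called members, Fgfr4 and Nr1h4 kept their calls between DT and saline livers in 22 and 18 of 22 alternatives, and Cyp7b1 and Slc27a5 in 15 and 9. Between DT and chow livers Cyp7b1, Cyp27a1, Slc27a5, Nr1h4, Baat and Cyp8b1 kept theirs in 22, 22, 21, 16, 15 and 14, and Cyp27a1 between saline and chow livers in 15. Total count scaling moved the median log2 fold change of all genes to 0.36 (DT over saline), 0.13 (saline over chow) and 0.44 (DT over chow), and the share of calls that were higher to 92.1%, 67.0% and 94.8%, beside 65.2%, 43.9% and 64.5% with TMM. That share was 75.7% (DT over saline) and 77.6% (DT over chow) with upper quartile factors and 53.1% and 50.6% with limma-voom. All genes called, 3734 for DT and saline livers, 950 for saline and chow livers and 3919 for DT and chow livers, became 5629 for DT and saline livers and 6536 for DT and chow livers with total count scaling, 1739 for saline and chow livers with DESeq2, and 2303, 3105 and 2089 with the compared groups alone. Members called, 4, 1 and 6, became 2, 3 and 3 with the compared groups alone, where Cyp7b1 (adjusted p = 0.0507) and Slc27a5 (0.0869) lost their calls against saline livers, Nr1h4 (0.0637), Baat (0.0823) and Slc27a5 (0.0553) lost theirs in DT against chow livers, and Cyp7b1 (0.0408) and Baat (0.00594) gained one in saline against chow livers, all in edgeR. Without DT replicates 1 and 2 together the genes called were 7894, 3311 and 7827, and the members called were 7 for DT and saline livers and 3 for saline and chow livers.

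Without 1 library the genes called ranged from 1786 to 6824 (DT and saline), 287 to 1924 (saline and chow) and 1786 to 6834 (DT and chow), and the members called from 1 to 7, 0 to 2 and 3 to 7. Log2 ratios of Cyp8b1 over Cyp7a1 ranged from -2.96 to -2.59 (saline over chow) and -2.62 to -2.02 (DT over chow), and of Cyp7b1 over Cyp7a1 from -3.14 to -2.59 (DT over chow). With 1 library fewer these tests gave exact permutation p of 0.0667 or 0.1, the smallest that the remaining livers allow. Deviations of same-numbered samples did not pair the livers (correlations of -0.16 to 0.18). With the replicate block 559 genes were called for saline and chow livers and 2210 for DT and chow livers. The members called for saline and chow livers were 0 (Cyp27a1 had an adjusted p of 0.0757 in edgeR). Those for DT and saline livers were 5, with Klb added (-0.55, adjusted p = 0.0216). Those for DT and chow livers were 5, with Cyp8b1 lost (-2.45, adjusted p = 0.075). In the block the log2 ratios of Cyp8b1 over Cyp7a1 were -2.85 (saline over chow) and -2.02 (DT over chow). That of Cyp7b1 over Cyp7a1 was -2.67 (DT over chow). Each had an exact permutation p of 0.25 over same-numbered pairs. With 3 pairs this is the smallest p possible, so the block could not bring these ratio tests below 0.05.

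Signs turned for differences that had not been called. With total count scaling these were Cyp27a1 in DT over saline (0.059), Cyp7a1 in DT over chow (0.21), Nr0b2 in saline over chow (0.10) and Nr1h4 in saline over chow (0.12). For Nr1h4 in saline over chow they were 0.019 with RLE factors, 0.017 with upper quartile factors, 0.019 with DESeq2, 0.012 without a filter, 0.010 with the compared groups alone and 0.00094 with the replicate block, and -0.059 to 0.12 without 1 library. For Nr0b2 in saline over chow they were 0.22 with limma-voom and 0.30 with the replicate block. Without DT replicates 1 and 2 together Nr0b2 was -0.28 (DT over saline) and -0.31 (DT over chow). Without 1 library Nr0b2 ran from -0.065 to 0.31 in DT over saline, -0.43 to 0.89 in saline over chow and -0.31 to 1.02 in DT over chow, Klb in saline over chow from -0.085 to 0.15, and Cyp7a1 in DT over chow from -0.49 to 0.022. The cause of these shifts was not tested.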
